A study of Mus musculus with 4 samples.

Results

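The genes examined were 10 that encode the proteins neutrophils store in granules or release, Mpo, Elane, Prtn3, Ctsg, Ltf, Lcn2, Camp, Ngp, Chil3 and Retnlg. They were taken by symbol from the 55416 features of the count matrices, and all 10 were found, each as a single feature. The samples were cells from the femoral epiphysis (the end of the thigh bone) of wild-type mice on postnatal days 7, 8, 10 and 12. Each day was 1 library of droplet single-cell RNA sequencing, so no difference between days could be tested, and the number of animals behind a library is not stated in the labels. The title of the series names the question of whether hematopoietic stem cells form after birth from cartilage cells by way of endothelium. No treatment, transgene or other genotype was part of the design.

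Neutrophils fill their granules in a fixed order as they mature. Primary, or azurophil, granules form first, in promyelocytes, and hold myeloperoxidase and serine proteases. Secondary, or specific, granules form in myelocytes and metamyelocytes and hold iron-binding and antimicrobial proteins, and mature cells keep the proteins after transcription of their genes has ended. C/EBP family factors and PU.1 are known regulators of these genes. In the bone marrow the same myeloid progenitors also give rise to monocytes, and basophils and mast cells use some of the same proteases.

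The libraries held 44218720, 46534365, 132282322 and 169323978 unique molecular identifiers (UMIs, each standing for 1 captured molecule) on days 7, 8, 10 and 12, and 11309, 11464, 10028 and 16251 cells were kept. The median cell had 3103, 3168.5, 7706.5 and 6563 UMIs. Chondrocyte-like cells, named from cartilage markers such as Col2a1 and Acan, made up 86.1%, 62.2%, 2.09% and 9.61% of the kept cells, so the cell make-up of the libraries differed strongly between days. Between 62 and 240 cell barcodes occurred in both libraries of a pair, the most between days 10 and 12, and leaving these cells out moved the 47 levels of members above 100 CPM to between 0.924 and 1.04 times their value.

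Neutrophil stages were clusters of cells named from markers that hold none of the 10 genes. The 10 genes and the granule genes of fixed lists were also kept out of the genes used for clustering. Apart from granule genes, a granulocyte progenitor-like cluster was led by Ms4a3 and Nrg2, and an immature neutrophil-like cluster by Cstdc5, S100a8, S100a9 and Cebpe. Intermediate cells carried both immature and late markers and were led by Ly6g and stefin genes. The late neutrophil-like clusters were led by Il1b, Il1r2, Csf3r and Cxcr2. The names progenitor, immature, intermediate and late are used below for these stages. They held 111, 75, 324 and 10 cells on day 10 and 91, 54, 231 and 647 cells on day 12. Days 7 and 8 held only 5 and 12 intermediate cells and 0 and 1 progenitor cells, with no immature or late cell.

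Levels are given in CPM, the UMIs of a gene summed over a stage and scaled to a fixed total of UMIs of that stage in its library, with an exact 95% Poisson interval that covers counting error only. The UMIs come from the 3′ ends of transcripts and are not scaled by length, so levels of a gene are compared between cells and not with those of other genes. Erythroid-like cells, which should not make granule proteins, served as the measure of free RNA, which is RNA released from broken cells and caught in other cells' droplets. Stages differ in UMIs per cell, so a low level is set against erythroid cells both in CPM and in UMIs per cell, and where these differ both are given. They numbered 2512 on day 10 and 1203 on day 12.

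Of the 10 genes, the 4 primary granule genes had their highest level in the progenitor stage on both days. Camp, Ngp and Chil3 were highest in the immature stage on both days, and Ltf and Lcn2 in the intermediate stage. Retnlg was highest in the intermediate stage on day 10, when the late stage held too few cells to be ranked, and in the late stage on day 12. This order of stages was read from levels alone and rests on 1 library per day.

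**Figure D1:**
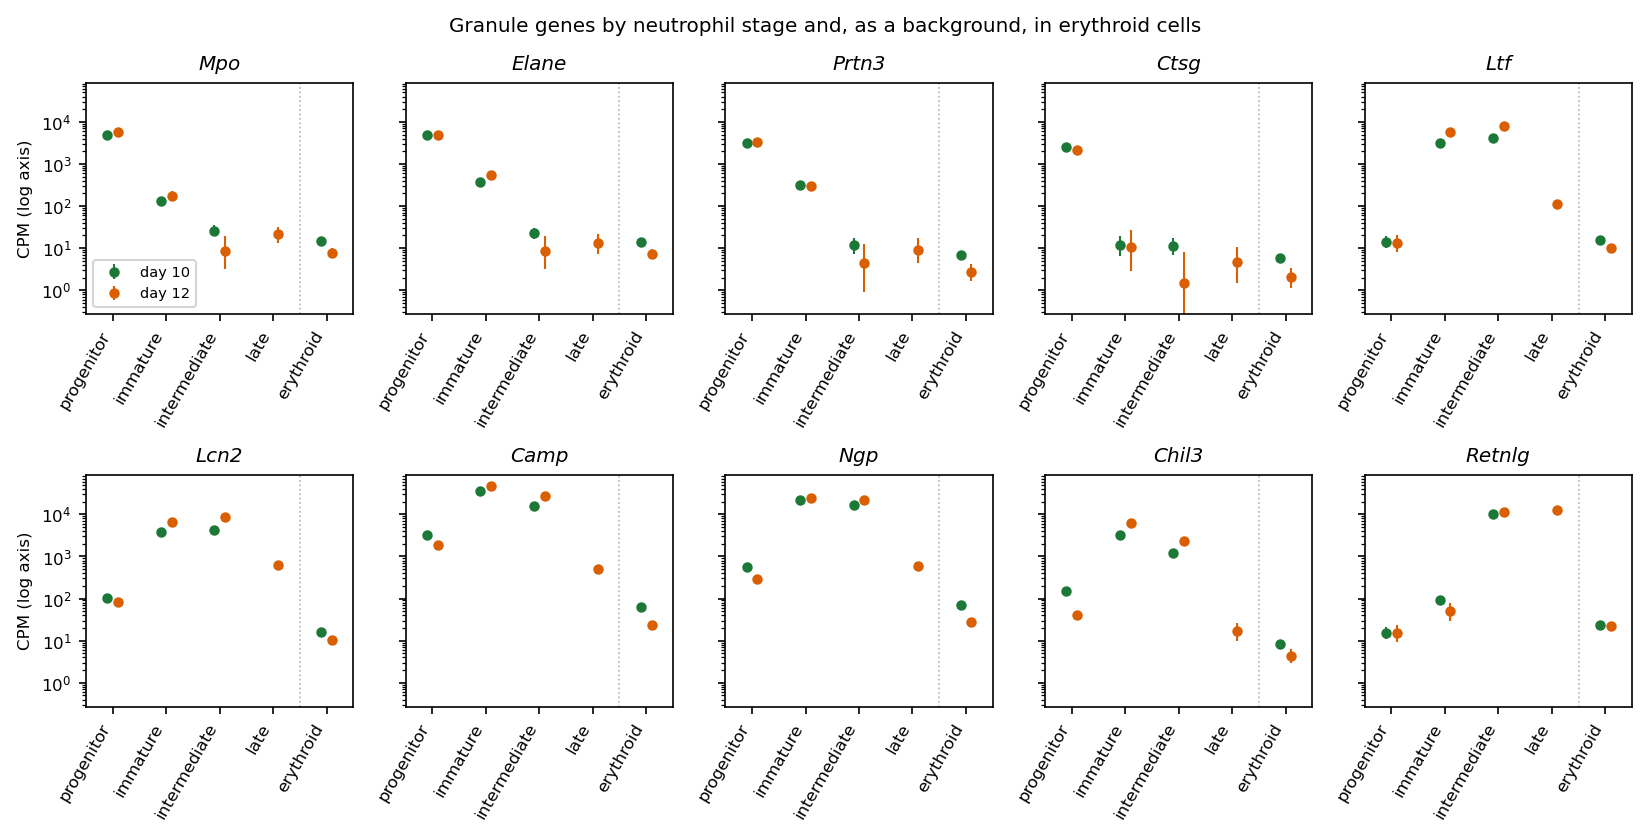
Level of each of the 10 genes (CPM, log axis) in the neutrophil stages and in erythroid cells on days 10 and 12. Points are summed counts of 1 library, and bars are exact 95% Poisson intervals, which cover counting error only. Mpo, Elane, Prtn3 and Ctsg are highest at the left, in progenitors, and Retnlg stays low until the intermediate stage.

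The promoters of 5 members are shown because short matches to sites of known granulocyte regulators lay in them. Elane and Prtn3 were highest in the progenitor stage, Ltf and Lcn2 in the intermediate stage and Ngp in the immature stage. The sequences are the 150 bases before the annotated start, from RefSeq on GRCm38.p6, a build other than the one used for the counts, and read 5′ to 3′ on the gene's strand. All 10 members had a promoter in that set. The search was for GAGGAAG, a PU.1 site, and TTGCNNAA, a C/EBP site, on both strands, and matches are in capitals. Elane and Prtn3 lie next to each other on chromosome 10.
Elane, chr10:79886162-79886311, + strand: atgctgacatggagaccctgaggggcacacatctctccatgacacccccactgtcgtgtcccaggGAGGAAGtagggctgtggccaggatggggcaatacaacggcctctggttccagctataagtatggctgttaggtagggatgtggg
Prtn3, chr10:79879517-79879666, + strand: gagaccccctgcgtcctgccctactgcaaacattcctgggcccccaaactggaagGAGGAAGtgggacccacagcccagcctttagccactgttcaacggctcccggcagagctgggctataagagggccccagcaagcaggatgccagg
Lcn2, chr2:32387740-32387889, - strand: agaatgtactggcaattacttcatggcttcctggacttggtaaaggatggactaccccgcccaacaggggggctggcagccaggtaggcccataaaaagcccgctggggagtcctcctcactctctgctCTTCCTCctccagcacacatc
Ltf, chr9:111019142-111019291, + strand: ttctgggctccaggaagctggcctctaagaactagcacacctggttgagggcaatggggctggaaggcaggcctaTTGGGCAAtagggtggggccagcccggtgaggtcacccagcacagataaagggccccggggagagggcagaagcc
Ngp, chr9:110419658-110419807, + strand: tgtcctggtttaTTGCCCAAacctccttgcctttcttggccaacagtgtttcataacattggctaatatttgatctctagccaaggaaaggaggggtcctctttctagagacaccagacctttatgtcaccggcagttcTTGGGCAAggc

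The PU.1 letters began 85 bases before the start of Elane, 95 before that of Prtn3 and 21 before that of Lcn2. The same letters occurred in 6.76% of 27025 mouse promoters of this length. The C/EBP letters began 75 bases before the start of Ltf, and Ngp held them at 138 and at 11 bases, against 5.48% of all promoters. GATA letters (AGATAA) were found in Ltf and Chil3 and in 5.76% of all promoters, and Myb letters (AACNGTT) in none of the 10 members and in 2.21% of all promoters. None of the printed matches overlaps another. A match is a stretch of letters and not a measured site, and no binding was measured in this series.

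Mpo (ENSMUSG00000009350.14) encodes myeloperoxidase, the enzyme that makes hypochlorous acid. Its level was 4867 CPM (4780 to 4955) in day-10 progenitors and 5724 CPM (5601 to 5848) in day-12 progenitors. In immature cells it was 135 CPM (day 10) and 175 CPM (day 12). Both immature levels lay far below the progenitor interval, and both lay above the erythroid levels of 15.1 and 7.73 CPM.

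Elane (ENSMUSG00000020125.8) encodes neutrophil elastase, the serine protease mutated in cyclic and severe congenital neutropenia. It stood at 4997 CPM (4909 to 5086) in day-10 and 4849 CPM (4736 to 4963) in day-12 progenitors. Immature cells had 374 CPM on day 10 and 548 CPM on day 12. Elane thus kept 7.48% and 11.3% of its progenitor level in immature cells.

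Prtn3 (ENSMUSG00000057729.13), the gene of proteinase 3 beside Elane on the chromosome, was at 3145 CPM (3075 to 3216) and 3340 CPM (3247 to 3435) in progenitors on days 10 and 12. In immature cells it was at 309 and 292 CPM, which is 9.82% and 8.75% of the progenitor level. Ctsg (ENSMUSG00000040314.3) encodes cathepsin G and had the steepest drop of the 4. It was at 2571 CPM (2508 to 2635) and 2153 CPM (2079 to 2230) in progenitors, and at 11.9 and 10.4 CPM in immature cells. Those are 0.462% and 0.485% of its progenitor level, and no immature cell had more than 3 UMIs of Ctsg.

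The primary genes left in the immature stage were unevenly spread over its cells. On day 10 the median immature cell had 0 UMIs of Elane, and 11 of 75 cells had 10 or more, up to 157. On day 12, 5 of 54 cells had 10 or more, up to 88. The 10 highest cells held 89.6% and 99.5% of the Elane UMIs of the stage on days 10 and 12. A few immature cells therefore carried nearly all of it. The doublet caller marked 0 cells on day 10 and 3 on day 12 and had thus not worked, so the part of doublets in this was not tested.

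In intermediate cells the primary genes were low, and how they compared with erythroid cells depended on the scale. On day 10 Mpo was at 26.1 CPM (19.1 to 34.6) against 15.1 CPM (13.6 to 16.8) in erythroid cells, and Elane at 22.7 CPM (16.3 to 30.8) against 14.3 CPM (12.8 to 15.9). In UMIs per cell the same genes were close to erythroid cells. Mpo gave 0.145 UMIs per intermediate cell on day 10 against 0.143 per erythroid cell, and Elane 0.127 against 0.135. Prtn3 gave 0.0648 against 0.0641 UMIs per cell, and Ctsg 0.0617 against 0.0565. After thinning, Ctsg was seen in 2.78% (1.28 to 5.21) of intermediate and 0.637% (0.364 to 1.03) of erythroid cells on day 10. No intermediate cell had more than 2 UMIs of any of the 4 genes. On day 12 the values per intermediate cell were 0.026 for Mpo and for Elane, 0.013 for Prtn3 and 0.00433 for Ctsg. All 4 were below those of erythroid cells, at 0.0466, 0.0449, 0.0166 and 0.0125. In CPM, Mpo at 8.70, Elane at 8.70 and Prtn3 at 4.35 were above the erythroid 7.73, 7.45 and 2.76. These were seen in only 6, 5 and 3 intermediate cells. Ctsg was below in CPM too, at 1.45 against 2.07.

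Ltf (ENSMUSG00000032496.8) encodes lactoferrin, an iron-binding protein of secondary granules. In progenitors it was at 14.2 CPM (9.90 to 19.8) on day 10 and 13.1 CPM (7.89 to 20.5) on day 12, close to the 15.9 and 10.1 CPM of erythroid cells. Per cell it gave 0.315 and 0.209 UMIs in progenitors against 0.1505 and 0.0607 in erythroid cells. Immature cells had 3167 and 5614 CPM, and intermediate cells 4110 and 7853 CPM. Ltf was thus within 1.5-fold of erythroid cells in CPM, though not per cell, in the progenitor stage.

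Lcn2 (ENSMUSG00000026822.15) encodes lipocalin 2, which binds bacterial siderophores. Progenitors had 103 CPM of it on day 10 and 84.8 CPM on day 12, immature cells 3765 and 6590 CPM, and intermediate cells 4249 and 8837 CPM. Its progenitor level was 2.42% and 0.960% of its highest level. On days 10 and 12, 6 and 4 progenitor cells had 10 or more UMIs of Lcn2, and the median progenitor had 0.

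Camp (ENSMUSG00000038357.11) encodes the precursor of cathelicidin, an antimicrobial peptide. In immature cells it made up 34986 CPM (34660 to 35313) on day 10 and 48357 CPM (47663 to 49058) on day 12. In intermediate cells it was at 15572 and 27389 CPM, and in progenitors at 3245 and 1842 CPM. Every immature cell had at least 32 UMIs of Camp on day 10 and 61 on day 12. Camp was the secondary gene with the largest share of its highest level in progenitors, at 9.27% on day 10 and 3.81% on day 12.

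Ngp (ENSMUSG00000032484.9), neutrophilic granule protein, is related to the cathelicidins and lies on the same chromosome as Camp and Ltf. It was at 21708 CPM (21452 to 21967) in day-10 and 24780 CPM (24284 to 25284) in day-12 immature cells. Intermediate cells had 17028 and 21412 CPM and progenitors 554 and 298 CPM. Its level in intermediate cells was thus nearer to that of immature cells than was the case for Camp.

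Chil3 (ENSMUSG00000040809.11) encodes Ym1, a chitinase-like lectin. Immature cells had 3257 CPM (3158 to 3358) on day 10 and 6269 CPM (6021 to 6525) on day 12, and intermediate cells had 1235 and 2349 CPM. Progenitors had 155 and 40.0 CPM. In late cells on day 12, Chil3 was at 16.7 CPM (9.90 to 26.4) against 4.42 CPM (3.02 to 6.23) in erythroid cells, and gave 0.0278 UMIs per cell against 0.0266. By stage Chil3 followed Camp and Ngp rather than Retnlg, although it was placed beside Retnlg in the list of secreted proteins.

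Retnlg (ENSMUSG00000022651.7) encodes resistin-like gamma, a small secreted protein of the resistin family. It was at 15.4 CPM (10.9 to 21.2) and 15.2 CPM (9.51 to 23.0) in progenitors, below the 23.8 and 22.5 CPM of erythroid cells, while per cell it gave 0.342 and 0.242 UMIs against 0.225 and 0.135. Immature cells had 90.2 and 49.6 CPM. Intermediate cells had 10389 CPM (10241 to 10539) and 11337 CPM (11087 to 11591), and day-12 late cells 12656 CPM (12445 to 12871). Retnlg was the only member that was low in immature cells and high in intermediate and late ones.

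Late cells on day 12 held little of the other members. Ltf was at 113 CPM, Lcn2 at 612 CPM, Camp at 502 CPM and Ngp at 591 CPM, against 7853, 8837, 27389 and 21412 CPM in intermediate cells of the same library. The median late cell had 0 UMIs of each of the 4 and 5 of Retnlg. Late cells were shallow, with a median of 1529 UMIs against 2897 in intermediate cells, so the filter on UMIs per cell bears on this stage most. With at least 2000 UMIs and 1000 genes and at most 10% mitochondrial UMIs, late cells had 1321 CPM of Camp, 1621 of Ngp, 285 of Ltf, 1297 of Lcn2 and 23327 of Retnlg. Intermediate cells under that filter had 29023, 22549, 8219, 9301 and 10585 CPM, so only Retnlg was higher in late cells, by 1.14 on the log2 scale.

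Late cells were of 2 clusters. In the larger, with 543 day-12 cells and led by Il1b, Retnlg was at 6042 CPM and Camp at 56.1 CPM. In the smaller, with 104 cells and led by Retnlg and Cxcr2, Retnlg was at 38252 CPM, Camp at 2228, Ngp at 2459, Lcn2 at 2061 and Ltf at 456 CPM. Every cell of the smaller cluster had at least 15 UMIs of Retnlg, while the median cell of the larger had 3. The larger cluster held 109 CPM of Ngp, 237 of Lcn2 and 24.5 of Ltf, so all 5 genes were lower there.

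Intermediate cells were also of 2 clusters, which days 10 and 12 filled differently. The first held 69 day-10 and 214 day-12 cells, and the second 255 and 17. On day 10 the second had more Retnlg, at 13592 against 1809 CPM, and less Camp, at 10862 against 28191 CPM, and less Ltf, at 3273 against 6351 CPM. Between these 2 clusters of day 10, then, the one with more Retnlg had less of the secondary genes. The 2 late clusters of day 12 differed from this, since the one with more Retnlg also had more of the secondary genes. With a finer clustering only 4 day-10 cells were named intermediate and 183 were named late, so the border between these stages depends on the clustering.

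The next comparison set each stage against the one before it within a library, over all genes with at least 20 UMIs in both sums together, and counted a gene as higher or lower from 1.5-fold. There is no replicate and thus no test, so the members are read beside all genes. From progenitor to immature, 6 members were higher and 4 lower on day 10, where 8.33% of 9187 genes were higher and 56.2% lower, and the median of all genes was −0.74 on the log2 scale. On day 12 the same 6 were higher and the same 4 lower, beside 16.3% higher and 44.4% lower of 8157 genes. The 4 lower members were the primary granule genes, and the 6 higher were the secondary genes with Chil3 and Retnlg.

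The log2 ratios of the primary genes from progenitor to immature on day 10 were −5.16 for Mpo (−5.39 to −4.95), −3.74 for Elane, −3.35 for Prtn3 and −7.67 for Ctsg (−8.60 to −7.04). On day 12 they were −5.01, −3.14, −3.50 and −7.37. The secondary genes had ratios of 7.76 for Ltf, 5.19 for Lcn2, 3.43 for Camp and 5.29 for Ngp on day 10, and 8.67, 6.27, 4.71 and 6.38 on day 12. Chil3 was at 4.39 and 7.27. Retnlg was at 2.52 (2.01 to 3.12) and 1.72 (0.74 to 2.66), from a progenitor level that was below erythroid cells in CPM and above them per cell.

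From immature to intermediate, 1 member was higher and 5 were lower on day 10, beside 26.4% higher and 30.3% lower of 7908 genes. The higher one was Retnlg, with a log2 ratio of 6.83 (6.58 to 7.13). The lower ones were Mpo, Elane, Prtn3, Camp and Chil3. Camp was at −1.17 and Chil3 at −1.40, while Ltf at 0.38, Lcn2 at 0.17, Ngp at −0.35 and Ctsg at −0.12 were within 1.5-fold.

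On day 12 the same comparison again gave 1 higher member, Retnlg at 7.76, and the same 5 lower ones, beside 20.9% higher and 29.3% lower of 5737 genes. Camp was at −0.82 and Chil3 at −1.42. Ctsg had too few UMIs to be compared. Ltf and Lcn2 were again slightly higher, at 0.48 and 0.42, and Ngp slightly lower, at −0.21.

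From intermediate to late on day 12, 1 of the 8 members with enough UMIs was higher and 5 were lower, beside 31.5% higher and 11.7% lower of 7274 genes. The lower ones were Ltf at −6.10, Lcn2 at −3.85, Camp at −5.77, Ngp at −5.18 and Chil3 at −7.06. Mpo was the higher one, at 1.13 (−0.04 to 2.88), from 23 UMIs in 647 late cells. Its late level of 21.3 CPM (13.5 to 32.0) was above the 7.73 CPM of erythroid cells, while its 0.0355 UMIs per cell were below their 0.0466. Retnlg was at 0.16 (0.12 to 0.20). Its direction depends on the clustering, since with a coarser one Retnlg was at 5967 CPM in late and 17695 CPM in intermediate cells, a log2 ratio of −1.57.

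Progenitors were next examined cell by cell, to see whether primary and secondary genes lay in the same cells. Each cell was thinned to 1000 UMIs, so that depth did not set the share. A primary gene was seen in 94.6% (88.6 to 98.0) of day-10 and 95.6% (89.1 to 98.8) of day-12 progenitors, and a secondary gene in 27.0% (19.0 to 36.3) and 26.4% (17.7 to 36.7). Both roles were seen in 24.3% and 26.4% of cells, and in 80.2% and 58.2% before thinning. Since nearly every progenitor had a primary gene, the share with both follows from the share with a secondary gene. By gene, Camp was seen in 21.6% (14.4 to 30.4) and 25.3% (16.7 to 35.5) of progenitors against 7.72% and 2.83% of erythroid cells, and Ngp in 18.9% (12.1 to 27.5) and 10.99% (5.40 to 19.3) against 9.99% and 4.41%. Ltf was seen in 0.901% and 0% of progenitors against 1.95% and 1.33% of erythroid cells, and Lcn2 in 5.41% and 8.79% against 2.39% and 1.83%.

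Camp in progenitors came from few cells. The median progenitor had 1 UMI of Camp on day 10 and 0 on day 12, and the highest had 1357 and 1065. On days 10 and 12, 25 and 16 progenitors had 10 or more UMIs, and the 10 highest held 88.1% and 92.5% of the Camp UMIs of the stage. Ngp was as uneven, with 86.6% and 93.1% in its 10 highest cells. Elane in contrast had a median of 86 and 53 UMIs per progenitor, with 34.8% in its 10 highest cells on day 12.

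In the immature stage a secondary gene was seen in all cells after thinning on both days, and a primary gene in 22.7% (13.8 to 33.8) and 16.7% (7.92 to 29.3). In intermediate cells a primary gene was seen in 9.26% and 3.46%. On day 10 Mpo was seen in 3.40% of intermediate and 1.87% of erythroid cells, Elane in 1.85% and 2.23%, Prtn3 in 1.54% and 1.07% and Ctsg in 2.78% and 0.637%. In late cells on day 12, Retnlg or Chil3 was seen in 73.4% (69.8 to 76.8) and a secondary gene in 37.4% (33.7 to 41.3).

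Other granule genes were taken from lists that hold none of the members. Of 10 further primary granule genes, 6 were lower and 0 higher from progenitor to immature on day 10, and 5 were lower and 2 higher on day 12. Of all genes 56.2% and 44.4% were lower in these comparisons, so the count of lower genes was near that of all genes. Prss57, a serine protease of the same granules, went from 188 to 42.0 CPM on day 10 and from 208 to 39.2 CPM on day 12. Nkg7 went from 396 to 54.6 and from 504 to 67.9 CPM, and Cst7, a cystatin, from 177 to 12.7 and from 154 to 5.22 CPM. Serpinb1a, an inhibitor of the granule proteases, did not follow and went from 604 to 632 CPM on day 10 and from 445 to 731 CPM on day 12.

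Of 19 further secondary and gelatinase granule genes, 15 of the 16 with enough UMIs were higher from progenitor to immature on day 10 and 13 of 14 on day 12, beside 8.33% and 16.3% of all genes. Cybb, a subunit of the NADPH oxidase, went from 230 to 1584 and from 188 to 2882 CPM. From immature to intermediate 10 of 18 were higher and 1 lower on day 10, and 8 of 17 higher and 1 lower on day 12, beside 26.4% and 20.9% of all genes higher. The lower one on both days was Fcnb, ficolin B, which went from 1383 to 124 and from 1167 to 181 CPM.

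Mmp8 and Mmp9, of the same list, were low in immature cells. Mmp8, neutrophil collagenase, was at 51.4 and 41.8 CPM in immature cells and at 1641 and 2247 CPM in intermediate cells on days 10 and 12. Mmp9, gelatinase B, was at 57.0 and 136 CPM in immature cells, 756 and 1534 CPM in intermediate cells and 1237 CPM in late cells on day 12. From intermediate to late, 4 of 18 genes of the list were higher, namely Slc11a1, Adam8, Slpi and Arg2, and 12 were lower, beside 31.5% higher and 11.7% lower of all genes. Slpi, a protease inhibitor, was at 703 CPM in intermediate and 1388 CPM in late cells.

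Transcription factors of granulocyte development differed between the same stages. Cebpe, known as a regulator of secondary granule genes, was at 153 and 76.5 CPM in progenitors and at 386 and 410 CPM in immature cells on days 10 and 12. Gfi1 was at 60.9 and 60.7 CPM in progenitors and 16.6 and 31.3 CPM in immature cells, and Myb at 309 and 411 and at 30.9 and 54.8 CPM. Cebpa was also lower in immature cells, at 3.17 and 5.22 against 43.1 and 66.9 CPM. Cebpe, Gfi1, Cebpa and Myb are among the markers that named the stages, so these 4 are a description and no independent result. Spi1, which encodes PU.1, was not a marker and was at 249 and 232 CPM in progenitors and 283 and 402 CPM in immature cells.

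The genes most like each group were taken as the 5 with the highest Pearson correlation of log2(CPM + 10) with the mean of the group, over 53 units of cell class and library and 16206 genes. For the primary group these were Prss57 (r = 0.95), Kcnk12 (0.94), Ms4a3 (0.94), Tspoap1 (0.87) and Chdh (0.87). For the secondary group they were Wfdc21 (0.97), Cstdc4 (0.96), Cstdc5 (0.96), Stfa2l1 (0.96) and Itgb2l (0.95), and for Chil3 and Retnlg they were Stfa2l1 (0.98), Stfa2 (0.97), Cstdc4 (0.96), Stfa3 (0.96) and Wfdc21 (0.95). The units share libraries and free RNA, and Ms4a3 and Stfa2l1 were among the markers that named the stages, so these values are a description. Among the members, Camp and Ngp were the most alike (r = 0.98), and Ctsg and Ltf the least (0.01). Stefin and cystatin genes such as Stfa2l1 and Cstdc5 have close copies, and how the counting divided reads among them is not stated in the sources used here. Chil3 has a close copy in Chil4, which had 1 UMI on day 10 and 1 on day 12, and Retnlg has relatives in Retnla and Retnlb, with 5 and 3 UMIs of Retnlb on days 10 and 12.

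Primary granule genes were also found outside the neutrophil stages. Stem and progenitor-like cells, led by Hlf, Flt3 and Cd34, numbered 6, 29, 34 and 59 on days 7, 8, 10 and 12. Their Mpo level was 1758 CPM (1439 to 2126), 2280 (2104 to 2468), 951 (893 to 1011) and 619 (568 to 673) on those days. Ctsg was at 3682, 2788, 393 and 169 CPM and Prtn3 at 1775, 1906, 217 and 160 CPM. All 3 genes were lower on days 10 and 12, when a separate granulocyte progenitor cluster was present.

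Elane differed most between the days in stem and progenitor-like cells. Its level was 1825 CPM (1500 to 2199) on day 7, 2685 CPM (2493 to 2887) on day 8, 20.4 CPM (12.8 to 30.9) on day 10 and 7.89 CPM (3.17 to 16.3) on day 12. On day 7 all 110 UMIs lay in 1 of 6 cells. On day 8 Elane was seen in 17 of 29 cells, and 12 had 5 or more UMIs, up to 172. Only 1 cell of day 8 and 0 of day 7 were named granulocyte progenitors, and whether such cells were grouped with stem cells on those days was not tested.

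On days 7 and 8 the primary genes lay mostly in stem and progenitor-like cells. Stem and progenitor-like cells held 94.0% and 93.1% of all Elane UMIs of their libraries and none of the UMIs of Ltf, Ngp, Chil3 or Retnlg. They held 82.2% and 77.1% of the UMIs of Mpo, 86.0% and 86.8% of those of Ctsg and 58.5% and 78.4% of those of Prtn3. Other classes held 39.3% of the 183 Prtn3 UMIs of day 7, and 19.5% of Prtn3 and 19.3% of Mpo on day 8. Intermediate neutrophils held 95.9% and 93.8% of the Retnlg UMIs, 70.3% and 90.2% of those of Ngp and 58.8% and 91.0% of those of Camp, and none of the UMIs of Mpo, Elane, Prtn3 or Ctsg. Of Ltf, Lcn2 and Chil3 they held 79.9%, 73.2% and 84.6% on day 8 but only 4.84%, 13.2% and 23.1% on day 7, when 90.3% of the 62 Ltf UMIs and 53.8% of the 13 Chil3 UMIs lay in other classes. Retnlg in these intermediate cells was at 45224 CPM (40275 to 50614) on day 7, in 5 cells, and at 41488 CPM (38991 to 44104) on day 8, in 12 cells. With so few cells a count of 0 for Mpo allows a level of up to 448 CPM on day 7 and 121 CPM on day 8 (3 UMIs of the total).

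Basophil or mast-like cells, led by Mcpt8, Prss34 and Cpa3, had Mpo and Ctsg at a far higher level than erythroid cells. On days 10 and 12, in 22 and 51 cells, Mpo was at 1586 CPM (1453 to 1728) and 1368 CPM (1249 to 1495) and Ctsg at 1498 CPM (1369 to 1636) and 1261 CPM (1147 to 1384). Elane was at 33.4 and 14.0 CPM and Prtn3 at 91.0 and 53.4 CPM. Prtn3 was above the erythroid 6.79 and 2.76 CPM on both days. Elane had an interval of 16.7 to 59.7 CPM on day 10, above the erythroid 14.3 CPM, and of 4.56 to 32.8 CPM on day 12, which includes the erythroid 7.45 CPM. Ctsg was seen in 16 of 22 and 29 of 51 of these cells, so it was not carried by a single cell.

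Monocyte-like cells were of 2 clusters. The earlier one, led by F13a1 and Ly6c2, had 129 and 36 cells on days 10 and 12. It had Prtn3 at 225 and 593 CPM, Elane at 170 and 498, Mpo at 149 and 272 and Ctsg at 53.4 and 166 CPM. On day 10, 13 of 129 cells had 5 or more UMIs of Prtn3, and the 10 highest held 81.1% of it. The primary genes were thus carried by a minority of this cluster.

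The later monocyte cluster, led by Ccr2, had 560 cells on day 12. Its levels were 8.04 CPM of Mpo, 6.43 of Elane, 11.3 of Prtn3 and 1.61 of Ctsg, against 7.73, 7.45, 2.76 and 2.07 CPM in erythroid cells. Mpo, Elane and Ctsg were there within counting error of erythroid cells in CPM, and per cell they gave 0.0357, 0.0286 and 0.00714 UMIs against 0.0466, 0.0449 and 0.0125. Chil3, which monocytes are known to make, was at 68.3 CPM in the earlier cluster on day 10 and 63.6 CPM on day 12. It was at 27.3 CPM in the later cluster on day 12, and erythroid cells had 8.35 and 4.42 CPM on days 10 and 12. Some other classes had more than erythroid cells, up to 43.2 CPM in endothelial cells on day 10. On day 12 T, NK or innate lymphoid cells had 33.3 CPM and dendritic cells 46.4 CPM, above the later monocyte cluster. In the earlier cluster on day 10, the 10 highest of 129 cells held 73.1% of the Chil3 UMIs. Retnlg and Ltf were near the erythroid level in the earlier cluster, at 16.1 and 9.19 CPM on day 10.

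**Figure D2:**
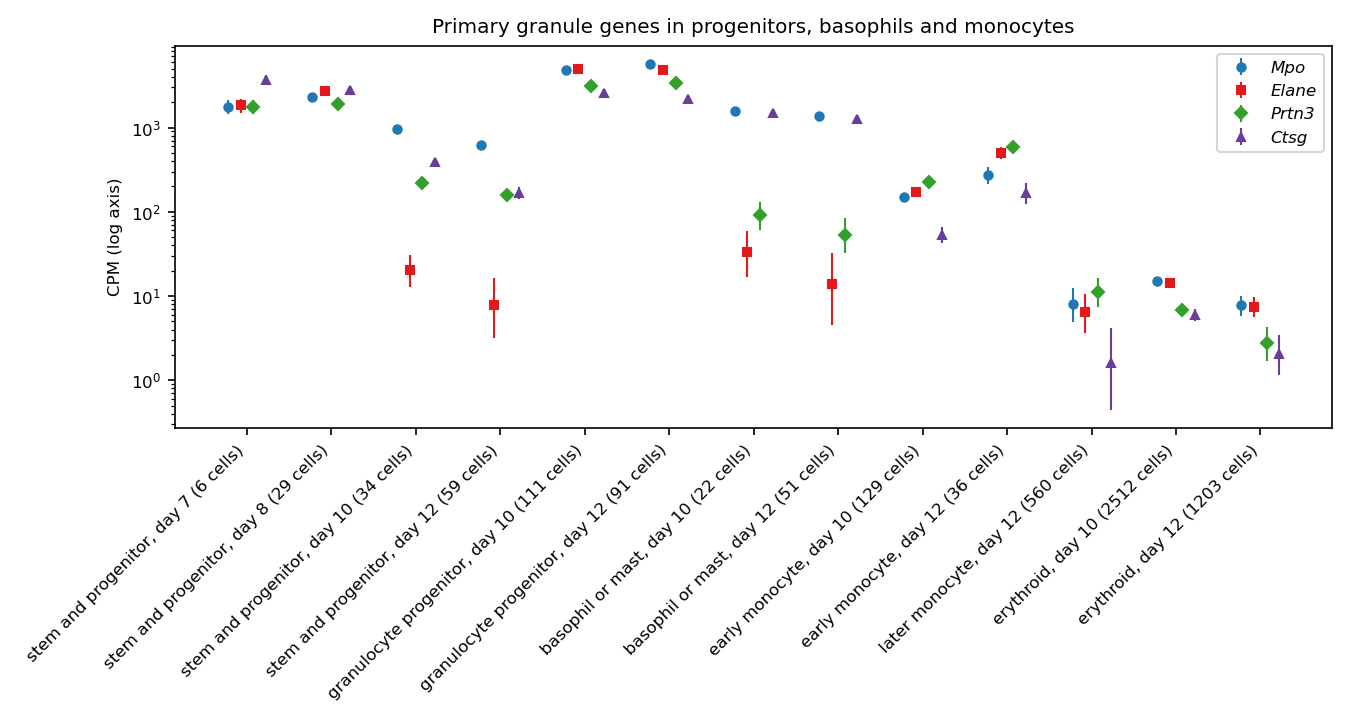
Level of Mpo, Elane, Prtn3 and Ctsg (CPM, log axis) in granulocyte progenitors, stem and progenitor-like cells, basophil or mast-like cells, monocyte clusters and, as a background, erythroid cells by day. Points are summed counts of 1 library, and bars are exact 95% Poisson intervals, which cover counting error only. In basophil or mast-like cells Mpo and Ctsg are above 1000 CPM while Elane is below 40 CPM.

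Days 10 and 12 were set side by side within each stage in the same way. In progenitors 0 members were higher and 3 lower on day 12, beside 20.6% higher and 7.03% lower of 9660 genes. The 3 were Camp at −0.82, Ngp at −0.89 and Chil3 at −1.93 on the log2 scale. Mpo at 0.23, Elane at −0.04, Prtn3 at 0.09 and Ctsg at −0.26 were within 1.5-fold. When granule genes were let into the clustering the ratios of these 3 were 0.10, 0.02 and 0.59.

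In immature cells 3 members were higher on day 12, Ltf at 0.83, Lcn2 at 0.81 and Chil3 at 0.94, and 1 lower, Retnlg at −0.80. Of 6295 genes 44.1% were higher and 5.0% lower, with a median of 0.50 on the log2 scale. In intermediate cells 4 were higher, Ltf at 0.93, Lcn2 at 1.06, Camp at 0.81 and Chil3 at 0.93, and the 4 primary genes were lower, from 47 UMIs or fewer each in day-10 cells. Of 7328 genes 38.3% were higher and 7.42% lower there, with a median of 0.44. Within the first intermediate cluster alone only Retnlg of the 6 members with enough UMIs was past 1.5-fold, at 2.53. Camp was at 0.02 and Chil3 at −0.13 there, so their higher level on day 12 was not seen within that cluster.

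In monocytes 1 member was higher on day 12, Retnlg at 1.35, and 7 were lower, beside 18.5% higher and 14.1% lower of 10179 genes. The lower ones were the 4 primary genes with Lcn2, Ngp and Chil3. The earlier cluster made up 129 of 155 monocytes on day 10 and 36 of 596 on day 12, and within it Mpo was at 0.88, Elane at 1.56, Prtn3 at 1.41 and Ctsg at 1.65. The direction of the primary genes between days was therefore the opposite within that cluster.

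Most UMIs of the members lay in the neutrophil stages. On day 10 these stages held between 70.2% (Chil3) and 80.3% (Elane) of each member's UMIs, and on day 12 between 61.7% (Chil3) and 79.4% (Elane). The 11 other classes described next held 5.17% to 8.71% on day 10 and 4.89% to 12.3% on day 12. The rest lay in monocytes, stem and progenitor cells, basophil or mast cells, macrophages, dendritic cells and clusters that were mixed or not named, among them a day-10 cluster of 1849 cells with a median of 1708 UMIs and 9.23 UMIs of the 10 genes per cell. A mixed day-12 cluster of 197 cells was led by late neutrophil genes such as Il1b together with cartilage genes such as Col10a1.

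Free RNA of the 10 genes was compared over chondrocyte, endothelial, fibroblast, tendon, reticular stromal, pericyte, osteoblast, osteoclast, erythroid and lymphoid classes, of which 5, 9, 11 and 11 were large enough on days 7, 8, 10 and 12. The mean number of UMIs of the 10 genes per cell had a median over classes of 0.0315 on day 7, 0.0744 on day 8, 2.39 on day 10 and 2.05 on day 12. Before thinning, 97.6% and 94.6% of these cells had none on days 7 and 8, and 19.4% and 54.1% on days 10 and 12. The libraries of days 10 and 12 were deeper per cell, so depth enters these shares. Without thinning, the granule genes were seen in most cells of other classes on day 10. The median was 2 UMIs per cell in all classes but fibroblasts, where it was 1. After thinning, Ngp was seen in 9.99% of day-10 erythroid cells, against 44.9% before.

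The mean was set by few cells. On day 10, 746 of 5918 such cells had 5 or more UMIs of the 10 genes and held 57.0% of them, and on day 12, 165 of 9191 cells held 70.0%. The mean per class reached 13.8 UMIs in endothelial cells on day 10 and was 1.19 in fibroblasts. On day 12 it was highest in T, NK or innate lymphoid cells, at 5.46, and lowest in fibroblasts, at 0.463. Leaving out cells with 5 or more took the median over classes from 172 to 125 CPM on day 10 and from 133 to 59.7 CPM on day 12. Whether these cells were droplets with 2 cells was not tested.

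**Figure D3:**
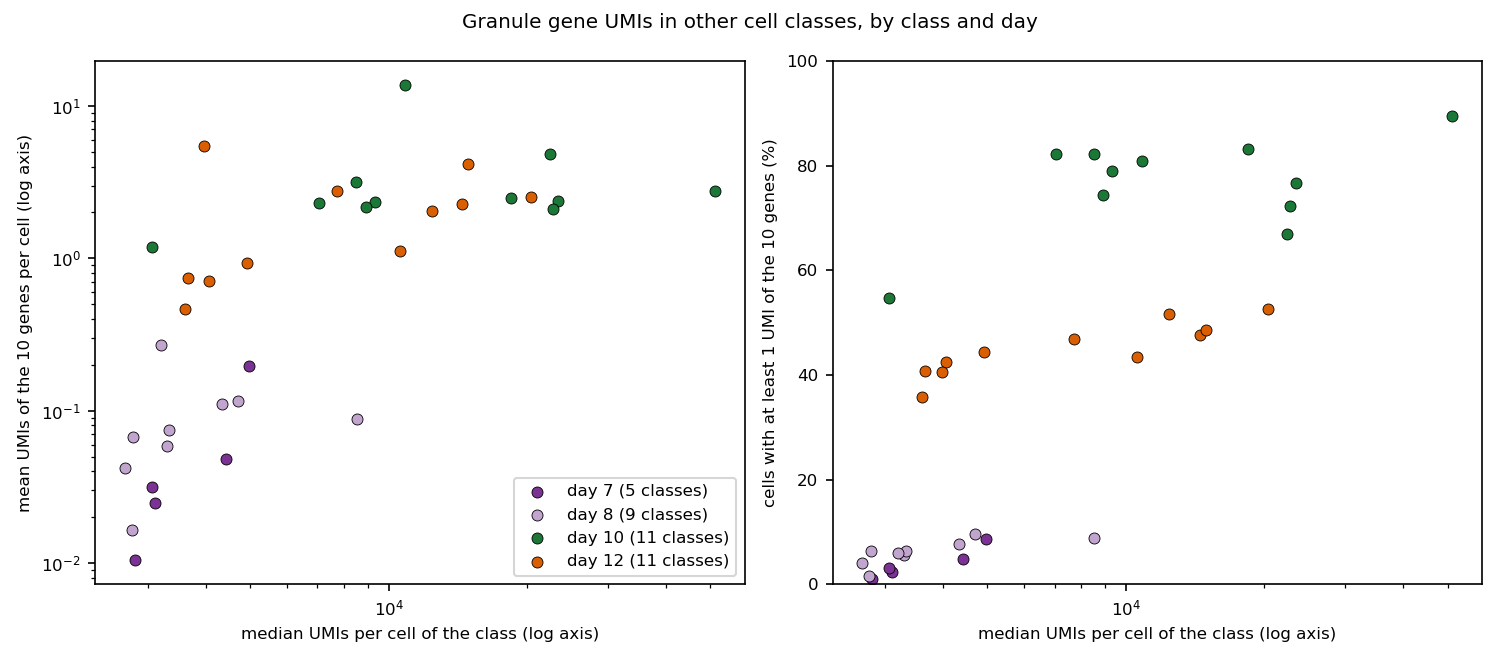
Mean UMIs of the 10 genes per cell (left, log axis) and percent of cells with at least 1 such UMI (right) against the median UMIs per cell of the class (log axis), for the classes other than neutrophils, monocytes, macrophages and their progenitors. Each point is 1 class in 1 library, coloured by day. Every class of days 10 and 12 has a mean of at least 0.463 UMIs, above the highest of days 7 and 8, 0.271. Cells were not thinned, and the libraries of days 10 and 12 are deeper. In CPM the days overlap, with 69.5 in the highest class of day 8 and 53.5 in the lowest of day 10.

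Members were next compared by their share in the UMIs of all 10, since RNA from a single source keeps its genes in 1 ratio in every class of a library. On day 10 Camp made up 35.0% of the 10 in the neutrophil stages and 24.3% (23.4 to 25.2) in other cells with under 5 UMIs, and Ngp 26.0% and 29.3% (28.3 to 30.2). Elane made up 5.59% and 5.84% (5.36 to 6.36) and Ctsg 2.78% and 2.71% (2.38 to 3.08). Camp was the member whose share differed most, and the intervals of Elane and of Ctsg overlapped between the 2 sets of cells.

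On day 12 Camp made up 30.7% in the neutrophil stages and 20.1% (19.1 to 21.1) in other cells with under 5 UMIs. Ngp made up 19.1% and 23.5% (22.5 to 24.6), Retnlg 16.2% and 18.8% (17.8 to 19.8) and Mpo 6.34% and 7.42% (6.77 to 8.11). Camp was again lower and Ngp higher in other cells with under 5 UMIs. Over all cells of the other classes on day 12, Camp made up 33.2% (32.5 to 33.8), which is above its share in the neutrophil stages, and Ngp 22.2%. On day 8 Mpo made up 25.2% (21.7 to 28.9) and Prtn3 20.4% (17.2 to 23.9) of the 10 in other cells with under 5 UMIs, and Retnlg 10.5%. In the 12 neutrophils of that day Mpo and Prtn3 were not seen and Retnlg made up 44.0%. Stem and progenitor-like cells held 77.1% of the Mpo and 78.4% of the Prtn3 UMIs of that library. The source of the UMIs in other cells was not tested.

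**Figure D4:**
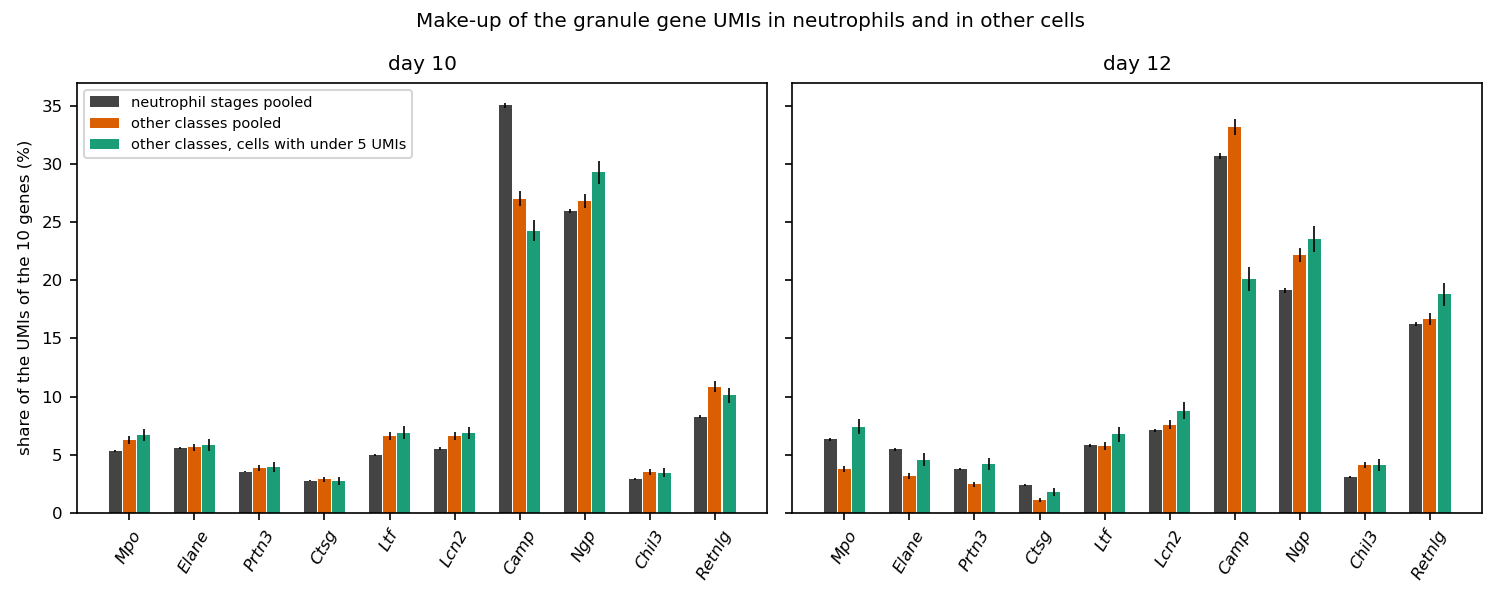
Share of each gene in the UMIs of the 10 genes (%) on days 10 and 12, in the neutrophil stages together, in all cells of other classes together and in those cells with under 5 UMIs of the 10 genes. Bars are shares with exact 95% Clopper-Pearson intervals, which cover counting error only. Camp makes up less of the UMIs in other cells with under 5 UMIs than in the neutrophil stages on both days.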

How the data were processed

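Cells from the femoral epiphysis of wild-type animals were captured on a MobiNova-100 droplet system and sequenced from the 3′ ends of transcripts, 1 library per day, per the labels' protocols. A digestion step of that protocol names another tissue, and the samples are described here by their tissue label. The deposited files hold UMI counts per gene and cell as the authors filtered them, with a lowest UMI count per barcode of 501, 500, 1043 and 747. Per the submitters' processing notes the genome build was GRCm39. The sources used here give no aligner, counter or barcode filter.

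Cells were kept if they had 500 or more genes, 1000 or more UMIs and no more than 15% mitochondrial UMIs. Scanpy 1.11.5 (Python 3.11.15) was used to take 2000 variable genes, 40 principal components and 20 neighbours over the 4 libraries, with Leiden clustering at resolution 1. Myeloid and progenitor clusters were clustered again, with 30 components and 15 neighbours, to give the stages. Neither the variable genes nor the markers held any of the 10 genes or a gene of the fixed lists of granule genes. Granule genes outside those lists were not searched for. A cluster was named where at least 50% of a marker list, and at least 3 markers, were raised at least 2-fold and seen in at least 10% of its cells, with a lead of 15 points. Immature, intermediate and late neutrophil clusters needed no lead. Those with at least 50% of both the immature and the late list were named intermediate. The doublet caller marked 0, 0, 0 and 3 cells. Counts were summed per stage and library, and intervals are exact 95% Poisson or Clopper-Pearson intervals, computed with SciPy 1.17.1. They cover counting error only, and with 1 library per day no test was possible.

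Log2 ratios had 1 UMI added to each sum and were made over all genes with at least 20 UMIs in both sums together. A difference of 1.5-fold was counted. Shares of cells were taken after thinning each cell to 1000 UMIs, which every kept cell had, unless given as before or without thinning. Counts of cells with a set number of UMIs were not thinned. A count of 3 UMIs set the limit that a count of 0 allows. The fold calls, the Poisson intervals and the thinning were tested on simulated counts. The clustering, the naming of stages and the promoter search were not. Genes like each group were the 5 with the highest correlation among genes with at least 200 UMIs, over classes with at least 50 cells. Genes named outside the 10 came from lists of granule genes, factors and close copies and from that rule. The members, the lists and the stages' markers were chosen with earlier results of these data known. Alternatives to the filter, the clustering, the total, the weighting of cells, the fold, the minimum count and the thinning were computed. The values within single clusters and without shared barcodes were added after seeing the data. Irf8, Itgam and Rag1 had no UMIs in any library and are not reported. Promoter sequences are from RefSeq on GRCm38.p6.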

Additional observations from a re-analysis of the deposited data

How the results depend on the processing

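Ratios between stages were steadier than ratios between days. Of 501 log2 ratios between stages recomputed under the alternatives, 491 stayed on the same side of the fold counted. Of the rest, 2 fell below it, 6 rose past it and 2 reversed. A reversal was a change of sign in a ratio past the fold before or after, so a ratio within the fold could change sign uncounted. Of 434 ratios between days 369 stayed on the same side, 31 fell below the fold, 17 rose past it and 17 reversed. Of the 47 levels above 100 CPM, 0 moved over 1.5-fold without shared barcodes, without the cells of highest doublet score or with another total, 2 with a mean of per-cell CPM, 5 under the stricter filter, 6 with granule genes in the clustering and 14 at resolution 0.5, and 11 of 41 at resolution 2. The cause of the values that moved was not tested. With a mean of per-cell CPM, Ctsg from immature to intermediate on day 10 was at 0.65, 2 members were higher there, 1 was lower between days in progenitors, and 5 members were highest in immature and 1 in intermediate cells on day 10 and 0 in late cells on day 12. With granule genes in the clustering, 3 members were higher from immature to intermediate on day 10 and 2 from intermediate to late. Between days in progenitors Lcn2 was then at 0.60, Camp at 0.10, Ngp at 0.02 and Chil3 at 0.59, with 2 higher and 0 lower. In immature cells Mpo was at −0.85, Elane at −0.61 and Retnlg at 0.62, with 4 lower, and in intermediate cells 1 was higher and 2 lower. At resolution 0.5, Retnlg from intermediate to late was at −1.57, and 2 members were higher there. Between days 5 members were lower in progenitors, Prtn3 was at 0.98 and Retnlg at 0.23 in immature cells, with 6 higher and 0 lower, 2 were higher in intermediate cells, Mpo was at 0.12 in monocytes, and 0 members were highest in late cells on day 12. At resolution 2, 5 members were lower between days in progenitors, Prtn3 was at 1.72 in immature cells with 5 higher, and 5 members were highest in immature cells on day 10. With a fold of 2, 1 member was lower between days in progenitors, 0 were higher and 0 lower in immature cells and 1 was higher in intermediate cells. With at least 50 UMIs, 0 members were higher from intermediate to late and 1 was lower between days in intermediate cells, and with at least 1 UMI 3 were higher from intermediate to late. Within the first intermediate cluster, Chil3 between days was at −0.13, with 1 higher and 0 lower. Within the later monocyte cluster 0 were higher and 4 lower. Within the earlier one, Mpo was at 0.88, Elane at 1.56, Prtn3 at 1.41, Ctsg at 1.65 and Camp at 1.22, with 5 higher and 1 lower. Thinned to 2000 UMIs, 43.5% of day-10 progenitors had both roles and 31.5% had Camp. Not thinned, both roles were in 80.2% and 58.2% and Camp in 60.4% and 40.7% on days 10 and 12. Without cells that had 5 or more UMIs of the 10 genes, the median over other classes was 125 CPM on day 10 and 59.7 CPM on day 12. No paired analysis was possible because each day has 1 library. Depth limits days 7 and 8 most, where the neutrophils are 5 and 12 cells.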

Other observations

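Lcn2 was also found outside the myeloid cells on day 7. A cluster of 553 cells led by Msmp, Bpifb1, Cytl1 and Prg4, the last of which encodes lubricin of the joint surface, had Lcn2 at 42.9 CPM (33.7 to 53.8) and held 55.1% of the 136 Lcn2 UMIs of that library, against 13.2% in neutrophils. On day 8 the same cluster was at 7.06 CPM. This cluster was not named, since it did not meet the rule for any marker list.

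Megakaryocyte-like cells of day 10, only 13 cells, had Camp at 1810 CPM, Ngp at 1271 CPM, Ltf at 287 CPM and Chil3 at 280 CPM, with up to 1477 UMIs of the 10 genes in a single cell. Of the 725 Camp UMIs 704 lay in 1 cell. On day 12, 40 such cells had Camp at 11.9 CPM.

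Prg2, a major protein of eosinophil granules, was at 197 CPM in granulocyte progenitors on day 10 and had 0 UMIs there on day 12. Epx, eosinophil peroxidase, was at 4.87 CPM in the same day-10 cells.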
